A study of Mus musculus with 48 samples.

Results

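The 9 genes P2ry12, P2ry13, Tmem119, Cx3cr1, Sall1, Siglech, Csf1r, Gpr34 and Olfml3 mark microglia in the undisturbed brain. They were taken by symbol from the 55357 genes of the count table and were followed over all 48 libraries. All 9 were among the 21390 genes with enough reads to be tested, and the lowest count of any of them in a library was 214.

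Microglia are the resident macrophages of the brain. In healthy tissue they survey their surroundings with fine, motile processes, and the genes they transcribe in that state are called homeostatic. After injury they multiply and switch to an activated program, in which several homeostatic transcripts are known to decline per cell. P2ry12 and P2ry13 encode receptors for ADP, and P2ry12 directs microglial processes toward damaged cells. Gpr34 encodes a receptor for lysophosphatidylserine. Cx3cr1 encodes the receptor for fractalkine, a neuronal chemokine, and Csf1r encodes the receptor for Csf1 and Il34, on which microglia depend for survival. Siglech encodes a sialic acid-binding lectin, Tmem119 a membrane protein that separates microglia from other macrophages, Olfml3 a secreted matrix glycoprotein, and Sall1 a transcription factor that maintains microglial identity.

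RNA of the dorsal dentate gyrus was sequenced in 24 wild-type C57BL/6J mice that had received 1 injection of kainate or of saline into 1 hippocampus. The injected side is the epileptogenic zone (EZ) and the opposite side the peri-ictal zone (PIZ), and tissue was taken 3, 7 or 14 days after injection. Each mouse gave 1 library from each side without pooling, so that the 12 groups of side, treatment and day held 4 libraries each, from 2 male and 2 female mice. Kainate mice had behavioral seizures on the day of injection and saline mice had none; their age is given as 6 to 8 weeks with the samples and as 8 to 10 weeks in the methods. In such bulk tissue fewer cells of a type and less RNA per cell cannot be told apart. Levels below are counts per 1000000 (CPM) after TMM scaling, and differences are log2 fold changes ± standard error (SE) from 1 edgeR quasi-likelihood model of all 48 libraries, unless another scale is named. A gene was called differentially expressed (DEG) at an adjusted p (Benjamini-Hochberg, over all genes of a comparison) under 0.01 with a fold change over 1.5, and is then said to have risen or fallen.

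On GRCm39 with Gencode M39, P2ry13 (chr3:59114539-59118304), P2ry12 (chr3:59123682-59170429) and Olfml3 (chr3:103629538-103645322) lie on the minus strand of chromosome 3. The 2 ADP receptor genes are neighbors and both overlap Med12l, which is transcribed from the opposite strand. Tmem119 (chr5:113931781-113938577), Sall1 (chr8:89753863-89770823) and Cx3cr1 (chr9:119877749-119898945) are also on the minus strand, and Siglech (chr7:55417926-55429195), Gpr34 (chrX:13489625-13507116) and Csf1r on the plus strand. Gpr34 overlaps Cask and Csf1r overlaps Hmgxb3, both on the opposite strand. Counting used the strand, so that reads of these neighbors were kept apart.

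RefSeq promoters (GRCm38.p6, an older build than that of the gene positions) were given for 6 of the 9 genes, namely P2ry12, P2ry13, Olfml3, Siglech, Sall1 and Cx3cr1. The 250 bases before the annotated start of P2ry12, at chr3:59262986-59263235, and of Olfml3, at chr3:103738002-103738251, are shown because these members had the smallest and the largest response to kainate in the EZ at day 7. Both read 5′ to 3′ on the minus strand, in lower case since no searched motif lies in them.
P2ry12: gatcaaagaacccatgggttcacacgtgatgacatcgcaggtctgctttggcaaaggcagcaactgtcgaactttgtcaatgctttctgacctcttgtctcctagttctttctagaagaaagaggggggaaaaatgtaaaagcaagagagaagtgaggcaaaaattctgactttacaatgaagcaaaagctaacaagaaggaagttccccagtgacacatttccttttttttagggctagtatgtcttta
Olfml3: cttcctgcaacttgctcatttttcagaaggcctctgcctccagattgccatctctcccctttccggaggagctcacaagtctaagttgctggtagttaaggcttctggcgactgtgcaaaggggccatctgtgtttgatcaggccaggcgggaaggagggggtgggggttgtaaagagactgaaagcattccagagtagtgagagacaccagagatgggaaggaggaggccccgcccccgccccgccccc
Windows of 300 bases, with 50 bases after the start, were searched on both strands for GAGGAAGT (PU.1), TGANTCA (AP-1) and GTCTAGAC (SMAD). No match was found in the 8 windows of the 6 genes (0 of 8). Among all 32851 promoters 3.2%, 7.81% and 0.213% held them.

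Library totals lay between 17762656 and 25712975 counts. The granule cell gene Prox1 and Rbfox3, a gene of neurons in general, averaged 247 and 227 CPM over the 48 libraries, as the labeled tissue would have. Markers of other immune cells reached higher sums in kainate libraries than in saline libraries. The 9 monocyte and neutrophil markers summed to 8.91 to 24.1 CPM in saline libraries and to at most 108 CPM in kainate libraries. The 6 border macrophage markers summed to 3.69 to 8.96 and at most 61 CPM, and 6 lymphocyte markers to at most 4.98 CPM. The EZ library of kainate mouse 27 at day 14 was the highest of its group for all 9 genes. Values of the EZ at day 14 include it unless stated, and the members are also given without it.

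In the 24 saline libraries the 9 genes had moderate levels. On the scale of reads per kilobase of exon per 1000000 (RPKM), the median was 14.7 (10.9 to 31.8) for Csf1r, 13.7 (10.1 to 24.7) for P2ry12 and 13 (9.75 to 25.3) for Cx3cr1, with the range over libraries in parentheses. These 3 receptor genes overlapped and stood above the rest by their medians. Tmem119 followed at 6.7 (4.49 to 11.4), Gpr34 at 5.1 (3.76 to 10.8) and P2ry13 at 4.43 (3.27 to 5.87). Siglech had 3.99 (2.94 to 7.5), Olfml3 3.77 (3.03 to 14.2) and Sall1, the transcription factor, 2.8 (2.13 to 5.19) RPKM. Each gene overlapped its neighbors in this order, which also depends on the annotated exon length, from 3068 bases for Gpr34 to 7361 bases for Csf1r.

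Kainate upregulated all 9 genes in the EZ at day 7, where 20.6% of all genes tested were upregulated. In the EZ at day 3, 4 of 9 were upregulated (Csf1r, Cx3cr1, Olfml3 and Tmem119; 16.1% of all genes), and at day 14, 4 of 9 (Csf1r, Cx3cr1, Gpr34 and Olfml3; 2.32%). In the PIZ, 8 of 9 were upregulated at day 3, all but P2ry13 (7.12% of all genes). In the EZ at day 3 the count was 2 without kainate mouse 38 or 42 or saline mouse 37, 18 or 41. In the PIZ at day 3 it was 4 without saline mouse 18. The calls over all genes in these reduced fits are not given here, so a loss among the members cannot be told from a loss over all genes. No member was downregulated in these comparisons. Of all genes 8.61% were in the EZ at day 3, 11.9% in the EZ at day 7 and 1.57% in the PIZ at day 3. Among 9 genes a count of 0 is near these shares and shows nothing particular to the members. The median log2 fold change of the 9 genes was 0.86, 2.37 and 1.08 in the EZ at the successive days and 1.36, 0.56 and 0.05 in the PIZ, against values from 0.00 to 0.03 over all genes. Without mouse 27 the EZ median at day 14 was 0.38.

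In the PIZ at day 7, 0 members were called by edgeR, DESeq2 or unweighted limma-voom, while limma-voom with quality weights called 6 and 3 had an unadjusted p under 0.05 (edgeR called 0.201% of all genes and limma-voom with quality weights 3.84%). At day 14 in the PIZ these 4 fits called 0 members, none of the 9 had an unadjusted p under 0.05, and edgeR called 0.014% of all genes, DESeq2 0.0166% and limma-voom with quality weights 0.449%. Every kainate library lay above every saline library of the same side and day for 6 members in the EZ at day 3 (23.9% of all genes), 9 at day 7 (23.7%) and 6 at day 14 (4.58%). In the PIZ this held for 9 members at day 3 (17.1%), for Sall1 and Csf1r at day 7 (7.63%) and for 0 members at day 14 (3.7%).

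**Figure D1:**
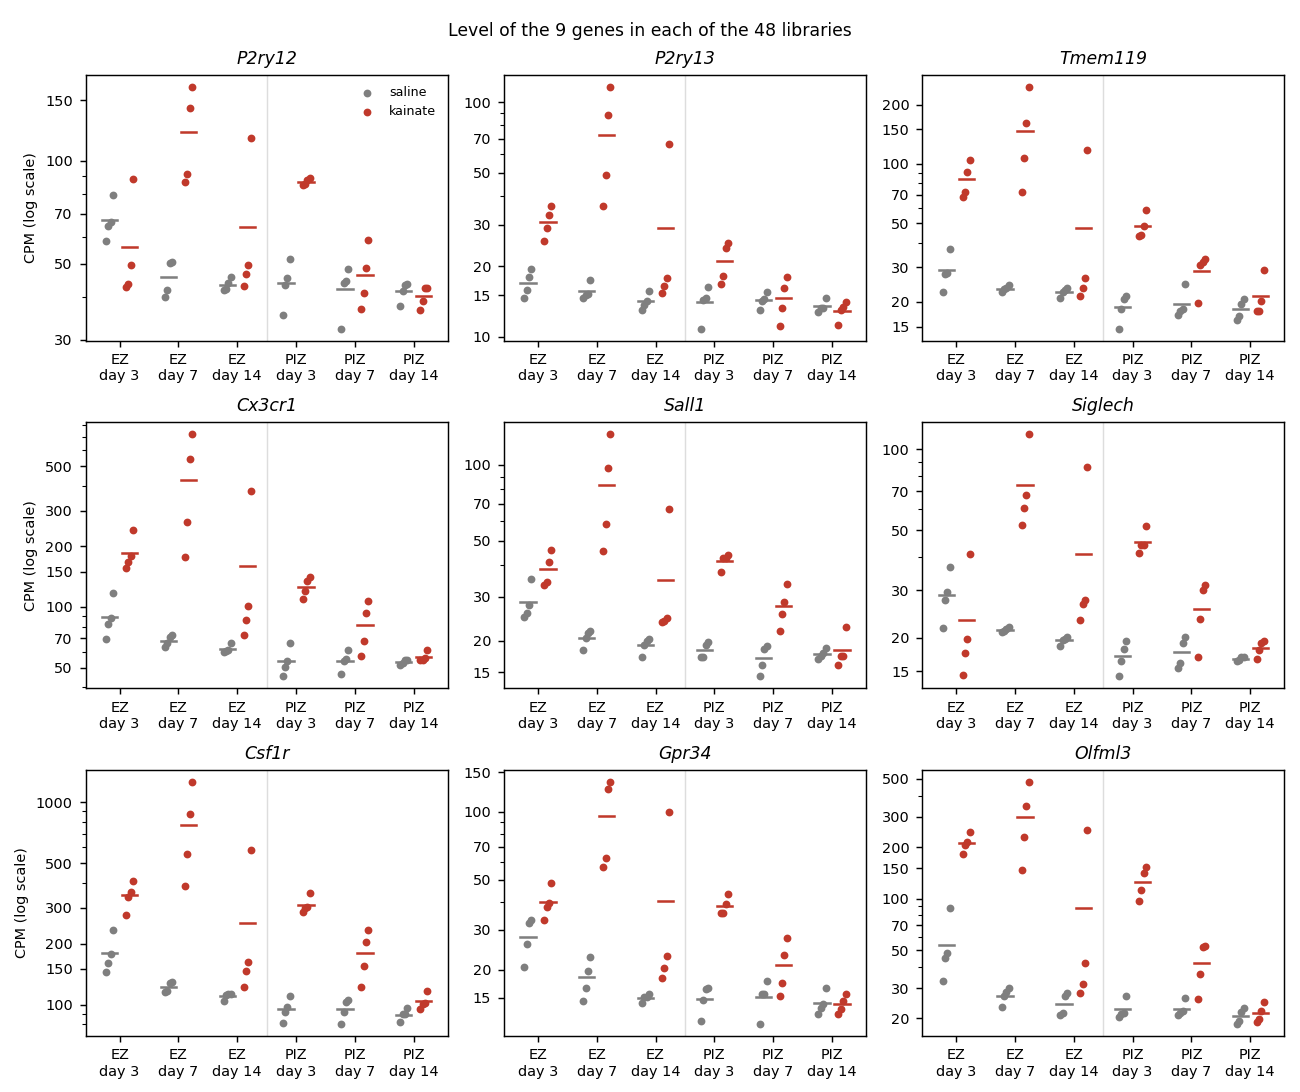
Level of each of the 9 genes in every library (CPM, log scale) by side and day, with saline libraries in gray, kainate libraries in red and a bar at the mean of each group of 4. Kainate and saline libraries separate for all 9 genes in the EZ at day 7 and in the PIZ at day 3, and 1 kainate library stands far above the other 3 in the EZ at day 14.

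P2ry12, the ADP receptor gene used most widely to mark resting microglia, was called in the PIZ but not in the EZ at day 3. In the EZ the kainate libraries held 42.8, 43.6, 49.7 and 88.1 CPM and the saline libraries 58.4, 64.6, 66 and 79.3 CPM. Thus 3 kainate libraries lay below all saline libraries and 1, from mouse 44, above them. The log2 fold change was -0.26 ± 0.22 (n = 4 against 4, adjusted p = 0.344). It was -0.56 without mouse 44 (adjusted p = 0.0328) and -0.15 without mouse 38 (adjusted p = 0.648). Across the alternatives that left no mouse out it ranged from -0.57 to -0.13, under the fold threshold, with a lowest adjusted p of 3.95e-05. In the PIZ at day 3 P2ry12 stood at 85.1, 85.3, 87.9 and 88.8 CPM with kainate against 35.5, 43.4, 45.3 and 51.6 CPM with saline. Here the groups were fully apart and the kainate libraries close to each other, with a log2 fold change of 0.98 ± 0.22 (adjusted p = 0.00137). At day 7 the EZ libraries held 86.8, 91.7, 143 and 165 CPM against 40, 41.8, 50.2 and 50.5 CPM, a log2 fold change of 1.41 ± 0.23 (adjusted p = 2.15e-06). This was the smallest increase of a member at that day.

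P2ry13, the second ADP receptor gene and the genomic neighbor of P2ry12, behaved otherwise at day 3. Its EZ libraries held 25.6 to 36.2 CPM with kainate and 14.7 to 19.4 CPM with saline, a log2 fold change of 0.86 ± 0.29 that missed the threshold although the groups were apart (adjusted p = 0.0139). The PIZ held 16.8 to 25 CPM against 10.8 to 16.3 CPM (0.58 ± 0.29, adjusted p = 0.152), the only member not called there. At day 7 in the EZ P2ry13 rose 4.65-fold, to 36, 48.7, 88.5 and 117 CPM against 14.6 to 17.4 CPM (2.22 ± 0.30, adjusted p = 1.55e-07).

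Siglech, the lectin gene, had the same arrangement of libraries as P2ry12. Its EZ libraries at day 3 held 14.5, 17.5, 19.8 and 41 CPM with kainate, the highest again from mouse 44, and 21.6, 27.5, 29.5 and 36.7 CPM with saline. Again 3 of 4 kainate libraries were below all saline libraries. The log2 fold change was -0.31 ± 0.28 (adjusted p = 0.366). It was -0.74 without mouse 44 (adjusted p = 0.0265) and -0.14 without mouse 38 (adjusted p = 0.745). Across the alternatives that left no mouse out it ranged from -0.54 to -0.19, under the fold threshold, with a lowest adjusted p of 0.000634. On the other side at day 3 Siglech rose 2.66-fold, with 41.4, 44.2, 44.2 and 52 CPM against 14.4, 16.3, 18.1 and 19.4 CPM (1.41 ± 0.28, adjusted p = 0.000383). At day 7 the EZ stood at 52.2, 60.6, 67.5 and 114 CPM against 20.9 to 21.9 CPM (1.78 ± 0.28, adjusted p = 2.16e-06).

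Gpr34, the lysophosphatidylserine receptor gene, had 33.3 to 48.3 CPM in the EZ of kainate mice at day 3 and 20.6 to 33 CPM in saline mice, a small margin that was not called (0.51 ± 0.31, adjusted p = 0.183). It rose 5.18-fold in the EZ at day 7, to 57.1, 62.4, 127 and 136 CPM against 14.6 to 22.8 CPM (2.37 ± 0.33, adjusted p = 2.14e-07). Gpr34 also rose 2.58-fold in the PIZ at day 3, to 35.6 to 43.5 CPM from 11.8 to 16.6 CPM (adjusted p = 0.00189).

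Cx3cr1 and Csf1r (chr18:61229714-61266535 on GRCm39), the receptors of a chemokine and of growth factors, rose in the EZ at days 3 and 7 and in the PIZ at day 3. Cx3cr1 held 156 to 242 CPM in the EZ at day 3 against 69.6 to 118 CPM (1.06 ± 0.32, adjusted p = 0.00697), and 177, 265, 545 and 722 CPM at day 7 against 63.3 to 72.2 CPM (2.65 ± 0.34, adjusted p = 6.79e-08). Csf1r held 278 to 409 CPM at day 3 against 145 to 234 CPM (0.95 ± 0.29, adjusted p = 0.00742), and 383, 556, 878 and 1262 CPM at day 7 against 115 to 129 CPM (2.66 ± 0.31, adjusted p = 2.84e-08). At day 7 these were 6.28-fold and 6.32-fold increases, with a wide spread among the 4 kainate mice and every one above all saline mice. Contralaterally at day 3, Csf1r rose 3.28-fold (287 to 355 CPM against 80.9 to 110 CPM, adjusted p = 7.82e-05) and Cx3cr1 2.33-fold (110 to 141 CPM against 45.4 to 66.1 CPM, adjusted p = 0.00576). At day 7 in the PIZ the Csf1r libraries of the treatments were still apart, at 122 to 233 CPM against 80.5 to 106 CPM, with a log2 fold change of 0.91 ± 0.29 that was not called (adjusted p = 0.114).

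Olfml3 and Tmem119 had the largest increases of the 9 genes in the EZ at day 3. Olfml3, the matrix glycoprotein gene, held 182, 205, 214 and 246 CPM with kainate against 33, 45, 48.5 and 87.7 CPM with saline (1.98 ± 0.40, adjusted p = 0.000122). At day 7 in the EZ it rose 11.1-fold, to 147, 228, 349 and 482 CPM against 23.4, 26.9, 28.5 and 30 CPM (3.47 ± 0.43, adjusted p = 4.7e-08). Olfml3 also rose 5.58-fold in the PIZ at day 3, to 96.3, 113, 141 and 154 CPM against 20.5, 21.2, 21.5 and 27 CPM (2.48 ± 0.41, adjusted p = 4.26e-05). Each of these 3 changes was the largest increase of a member in its comparison. Tmem119 stood at 67.8 to 105 CPM against 22.3 to 37.3 CPM in the EZ at day 3 (1.54 ± 0.33, adjusted p = 0.000247) and at 72.4, 107, 162 and 246 CPM against 22.4 to 24.3 CPM at day 7 (2.65 ± 0.34, adjusted p = 8.18e-08). The PIZ level of Tmem119 at day 3 rose 2.57-fold (43.1 to 58.4 CPM against 14.7 to 21.5 CPM, adjusted p = 0.00285).

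Sall1, the transcription factor of microglial identity, was not called in the EZ at day 3, where 33.4, 34.2, 41 and 46.1 CPM with kainate overlapped 24.9, 25.8, 27.7 and 35.3 CPM with saline (0.44 ± 0.23, adjusted p = 0.117). On the contralateral side it rose 2.27-fold, to 37.4 to 43.9 CPM from 17.2 to 19.8 CPM (adjusted p = 0.000402). At day 7 in the EZ it rose 4.06-fold, to 45.4, 58.2, 97.3 and 133 CPM against 18.3 to 21.9 CPM (2.02 ± 0.24, adjusted p = 3.56e-08).

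**Figure D2:**
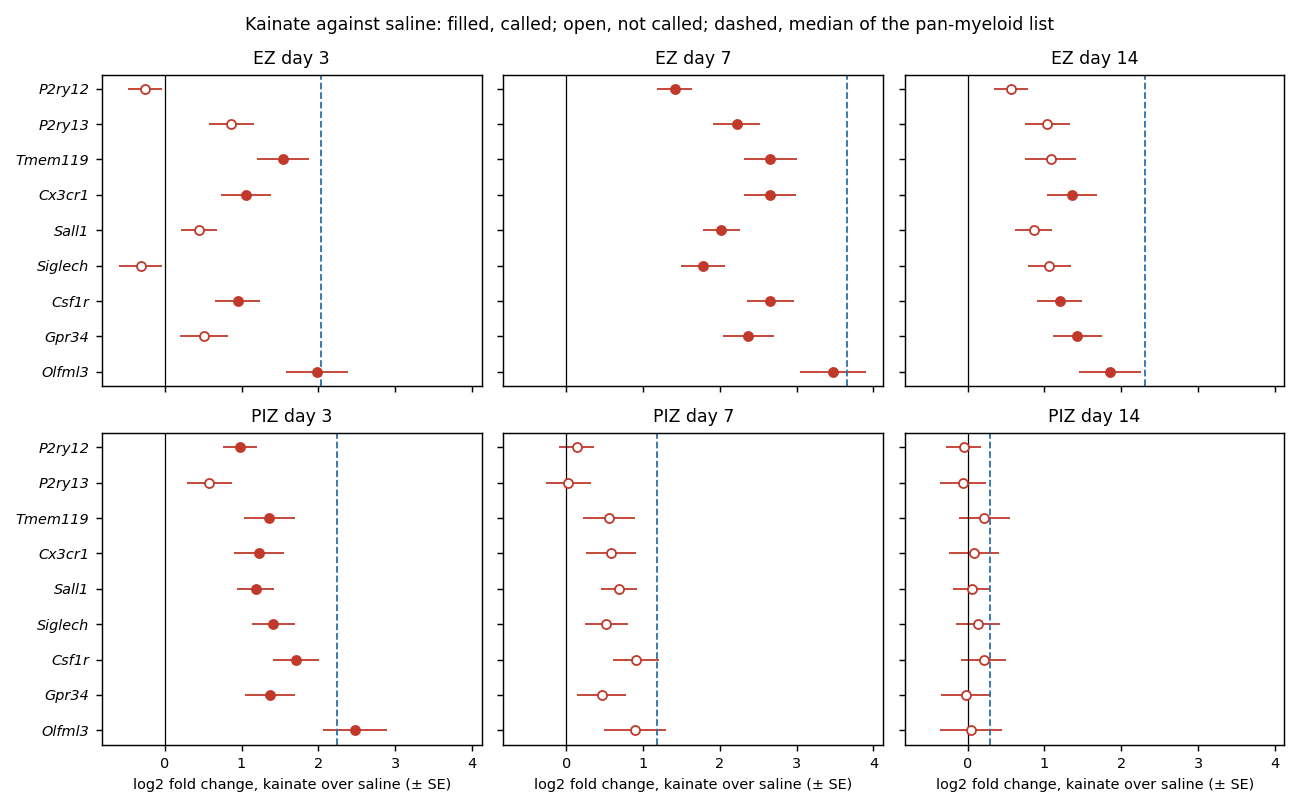
Log2 fold change of kainate over saline (± SE, n = 4 against 4 libraries) for each gene by side and day, with filled circles for called genes, open circles for genes not called and a dashed line at the median of the pan-myeloid list described below. In the EZ at day 3 P2ry12 (-0.26) and Siglech (-0.31) lie below 0 while Olfml3 lies at 1.98, and in the EZ at day 7 all 9 lie between 1.41 and 3.47.

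The EZ result at day 14 rested on 1 mouse. In kainate mouse 27 Olfml3 stood at 251 CPM, against 28.3, 31.6 and 41.9 CPM in the other 3 kainate mice and 21 to 28.2 CPM with saline. Csf1r stood at 579 CPM, against 123, 146 and 163 CPM and 105 to 113 CPM with saline. Tmem119 stood at 118 CPM, against 21.4, 23.6 and 26.5 CPM and 20.9 to 23.6 CPM with saline. Mouse 27 was thus within the range of the day 7 kainate mice for these genes, and the other 3 mice were near the saline range. With all 4 mice the log2 fold changes were 1.86 ± 0.41 for Olfml3, 1.43 ± 0.32 for Gpr34, 1.36 ± 0.33 for Cx3cr1 and 1.20 ± 0.30 for Csf1r (adjusted p = 0.00392, 0.00485, 0.00785 and 0.00982). Without mouse 27 they were 0.48, 0.46, 0.48 and 0.38 (adjusted p = 1 for each), and 0 members and 7 of all genes were called. The count was also 0 without any 1 saline mouse of that day (30 to 137 of all genes called) and in limma-voom with quality weights (58 of all genes) or without them (0 of all genes). With mouse as a block in limma-voom, where 0 of all genes were called, the 4 genes were at 1.20, 1.04, 1.0 and 0.87 (adjusted p = 0.164, 0.16, 0.144 and 0.153), whereas DESeq2 called 6 members (1.73% of all genes). Within the same group the 9 monocyte and neutrophil markers summed to 7.97 to 51.3 CPM and the 4 astrocyte markers to 1707 to 8091 CPM, and their part in these values was not tested.

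The difference between the sides was tested as the kainate effect in the EZ minus that in the PIZ. At day 3 edgeR and unweighted limma-voom called 0 members, DESeq2 1 and limma-voom with quality weights 5, and 3 had an unadjusted p under 0.05. Of all genes edgeR called 0.0655%, DESeq2 0.225% and limma-voom with quality weights 8.78%. The effect was lowest in the EZ, relative to the PIZ, for Siglech (-1.73 ± 0.40 on the log2 scale, adjusted p = 0.0333) and P2ry12 (-1.24 ± 0.31, adjusted p = 0.0449). Without mouse 44 both were called, with 0.96% of all genes, at -2.16 (adjusted p = 0.00142) and -1.54 (adjusted p = 0.0041). Without mouse 38 neither was called, with an adjusted p of 0.163 for Siglech, at -1.59, and of 0.234 for P2ry12. With mouse as a block, Siglech was called in limma-voom at -1.84 (adjusted p = 0.00674) and not in edgeR. Within single mice, P2ry12 was lower in the EZ than in the PIZ in 4 of 4 kainate mice at day 3, by a mean log2 difference of -0.70 ± 0.47 (SD), and higher in 4 of 4 saline mice (0.61 ± 0.08). Siglech showed the same signs, at -1.08 ± 0.65 in kainate and 0.74 ± 0.14 in saline mice. Tmem119 (0.78 ± 0.35), Olfml3 (0.77 ± 0.47), P2ry13 (0.57 ± 0.49) and Cx3cr1 (0.55 ± 0.41) were higher in the EZ of 4 of 4 kainate mice. They were also higher in the EZ of 4 of 4 saline mice, at 0.61 ± 0.29, 1.16 ± 0.42, 0.28 ± 0.13 and 0.71 ± 0.12.

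At day 7 the kainate effect was larger in the EZ than in the PIZ for 8 of 9 members in edgeR, with 7% of all genes called in this direction and 2.88% in the other. The difference was 2.58 ± 0.57 for Olfml3 (adjusted p = 0.00256), 2.19 ± 0.42 for P2ry13 (adjusted p = 0.00179) and 1.28 ± 0.32 for P2ry12 (adjusted p = 0.0045). Siglech, at 1.26 ± 0.40, was not called by edgeR (adjusted p = 0.0175). DESeq2 and limma-voom with quality weights called 9 of 9, Siglech included (6.92% and 24% of all genes), and unweighted limma-voom 7. Every member was higher in the EZ than in the PIZ in 4 of 4 kainate mice at that day. The calls rested on single mice, as did those of all genes. Without kainate mouse 21, whose EZ library had the highest Olfml3 level of its group and whose PIZ library the lowest, 0 members and 1 of all genes were called, while the difference was still 2.09 for Olfml3 (adjusted p = 0.0325) and 1.75 for P2ry13 (adjusted p = 0.026). Without kainate mouse 35, saline mouse 89 or saline mouse 20 the count of members was 1 and that of all genes 188, 221 and 149, against 2115 with all mice. For the members it was 4 without saline mouse 33 and 5 without saline mouse 34, and the counts of all genes in those fits are not given here. At day 14 edgeR, DESeq2 and both forms of limma-voom called 0 members, with differences of 0.61 to 1.81 and an unadjusted p under 0.05 for 7, and 0% of all genes were called by edgeR (0.00475% by DESeq2). Without mouse 27 these differences were 0.06 (Tmem119) to 0.53 (Gpr34).

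**Figure D3:**
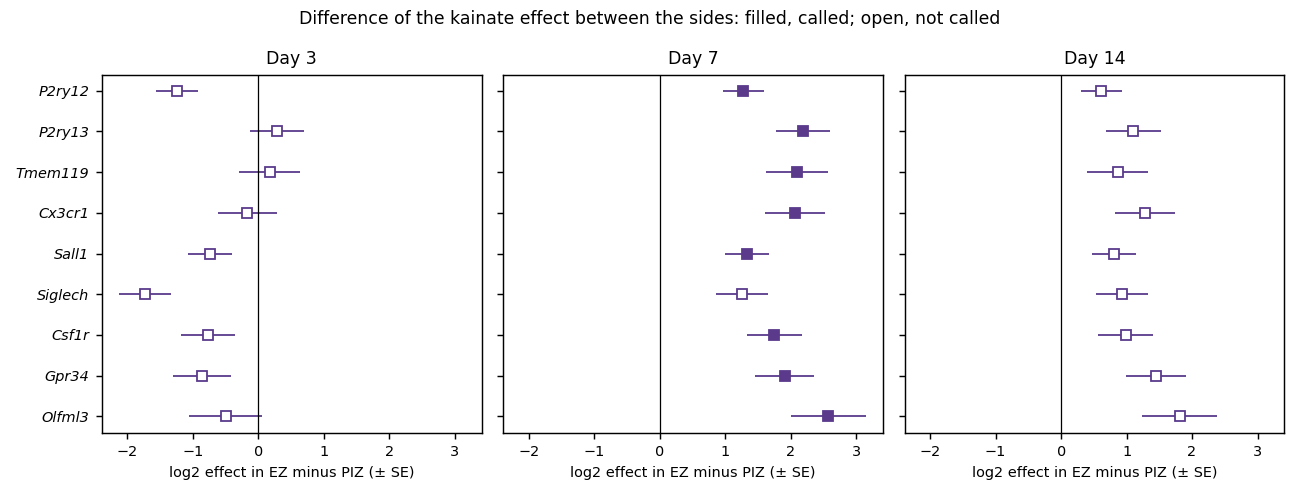
Kainate effect in the EZ minus that in the PIZ (log2 ± SE) for each gene at days 3, 7 and 14, filled where called. At day 3, 7 of 9 genes lie below 0 and none is called, at day 7 all 9 lie above 0 with 8 called, and at day 14 all 9 lie above 0 with none called, at values that shrink to between 0.06 and 0.53 without mouse 27.

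Between days, the estimate of the kainate effect in the EZ was higher at day 7 than at day 3 for all 9 genes. The difference was called for P2ry12 (1.67 ± 0.31 on the log2 scale, adjusted p = 0.00475) and Siglech (2.10 ± 0.40, adjusted p = 0.00475), where 0.112% of all genes were called higher. These were the members with estimates below 0 in the EZ at day 3. In 11 of 16 models with 1 mouse left out, and in a model of only the groups compared, 0 members were called. With all mice only 31 of all genes were called in either direction. The counts of all genes in the models with 1 mouse left out are not given here. DESeq2 called 5 members (0.237% of all genes) and limma-voom with quality weights 9 (5.73%). From day 7 to day 14 the estimates in the EZ changed by -1.61 to -0.72, and edgeR and unweighted limma-voom called 0 members (0.271% of all genes by edgeR), DESeq2 1 (2.13%) and limma-voom with quality weights 9 (29.5%), with 8 at an unadjusted p under 0.05. Without mouse 27 all 9 were called, with 18.8% of all genes, from -1.31 for P2ry12 (adjusted p = 0.000202) to -2.99 for Olfml3 (adjusted p = 3.66e-07). In the PIZ the estimates changed by -1.59 to -0.50 from day 3 to day 7, with 0 members called by edgeR, DESeq2 or unweighted limma-voom, 1 by limma-voom with quality weights (0.659% of all genes), 3 at an unadjusted p under 0.05 and 0.0234% of all genes called by edgeR.

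The sides were also compared in the saline mice, without an uninjected group. The main model did not pair the 2 libraries of a mouse, and the fits with mouse as a block called no member here. At day 3 each of the 9 genes was higher in the injected side in 4 of 4 saline mice, with differences in the model of 0.28 ± 0.29 (P2ry13) to 1.25 ± 0.40 (Olfml3). None passed the threshold in edgeR, DESeq2 or unweighted limma-voom (lowest adjusted p = 0.454, 0.0281% of all genes called), while limma-voom with quality weights called 6 (0.463%) and 7 had an unadjusted p under 0.05. At days 7 and 14 the median difference was 0.27 and 0.22, the 4 fits called 0 members, none had an unadjusted p under 0.05, and edgeR called 0% of all genes on either day (DESeq2 0.00237% at day 7). The EZ saline libraries that served as control for P2ry12 held 58.4 to 79.3 CPM at day 3 and 40 to 50.5 CPM at day 7, a difference that was not tested.

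Genes of the myeloid lineage in general were also measured. The pan-myeloid list (Aif1, Itgam, Ptprc, Spi1, Tyrobp, Fcer1g, Laptm5, Ctss, C1qa, C1qb and C1qc) had 11 of 11 genes upregulated in the EZ at each day and in the PIZ at day 3, with a median log2 fold change of 2.04, 3.65, 2.31 and 2.24. The EZ count at day 14 again rested on mouse 27, without which 7 of all genes were called. The most abundant of the list, the protease gene Ctss and the complement gene C1qb, rose on the log2 scale by 3.65 ± 0.45 and 3.97 ± 0.49 in the EZ at day 7. Each member was then expressed as its log2 CPM minus the mean log2 CPM of this list in the same library, as a description without a test. On that scale 8 of 9 members were lower in every kainate library than in every saline library in the EZ at day 3 (86.3% of all genes), in the EZ at day 7 (95.6%) and in the PIZ at day 3 (93.4%). The same held for 9 of 9 in the EZ at day 14 (71.2%), and for 7 members at day 7 (65.6%) and 2 at day 14 (13.2%) in the PIZ. The counts of 8 of 9 were near the shares of all genes and show nothing particular to the members. Without the C1q genes in the list, Tmem119 overlapped as well and the count was 7 in the EZ at day 3 and 6 in the PIZ at day 7. The exception in the first 3 comparisons was Olfml3, which moved with the list (0.03 in the EZ at day 3, -0.18 at day 7 and 0.14 in the PIZ at day 3).

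In the EZ at day 3 the members furthest below their saline level on this scale were Siglech (-2.44) and P2ry12 (-2.35), followed by Sall1 (-1.59), Gpr34 (-1.52), P2ry13 (-1.18), Csf1r (-1.07), Cx3cr1 (-0.97) and Tmem119 (-0.50). The order was another in the PIZ at day 3, led by P2ry13 (-1.75) and P2ry12 (-1.33), with Siglech at -0.91 and Csf1r at -0.61. At day 7 in the EZ P2ry12 stood at -2.15, Siglech at -1.80, Sall1 at -1.62 and P2ry13 at -1.45. Most genes of the tissue were lower on this scale, with a median difference over all genes of -2.01, -3.51 and -2.31 in the EZ at day 3, the EZ at day 7 and the PIZ at day 3. The scale therefore compares the members with the list and with each other, and not with the rest of the tissue. In the EZ at day 3 P2ry12 and Siglech were below the median of all genes, and the other 7 members above it.

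**Figure D4:**
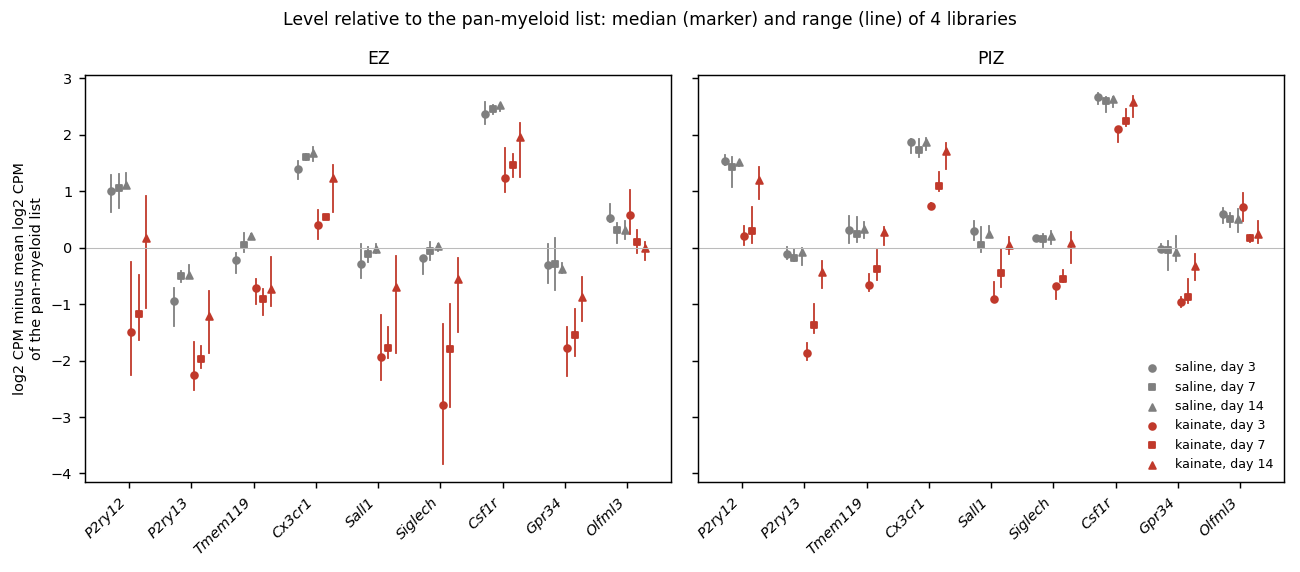
Level of each gene relative to the pan-myeloid list (log2 CPM minus the mean log2 CPM of 11 genes) in the EZ and the PIZ, with the median (marker) and range (line) of 4 libraries for saline (gray) and kainate (red) at days 3, 7 and 14. In the EZ at day 3 Siglech ranges from -0.47 to -0.15 with saline and from -3.83 to -1.36 with kainate, whereas the ranges of Olfml3 overlap.

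Other homeostatic genes were measured beside the 9. Of 17 tested, among them Selplg, Slc2a5, Slco2b1, Crybb1, Ltc4s, Lag3, P2ry6, Adgrg1, Tgfbr1, Mertk, Entpd1, Nav3, Cd33 and Abi3, 9 were upregulated in the EZ at day 3, 16 at day 7 and 10 in the PIZ at day 3, with medians of 0.81, 2.38 and 1.43, close to those of the members. In the EZ at day 14, with mouse 27, 5 were, among them Lag3, P2ry6, Cd33 and Abi3. Nav3, an abundant gene of this list, was not called in the EZ at days 3 and 7, with log2 fold changes of -0.47 ± 0.12 and -0.26 ± 0.12. Of 17 genes of activated microglia, 14 were upregulated in the EZ at day 3, 16 at day 7, 10 at day 14 with mouse 27 and 11 in the PIZ at day 3, with medians of 2.88, 4.27, 2.59 and 2.17. At day 14 their summed level in the 4 EZ kainate libraries ran from 2169 to 13916 CPM with a median of 3096. Without mouse 27 only 7 of all genes were called there. Much of this sum comes from Apoe, Ctsb and Ctsd, at means of 939, 428 and 326 CPM in the EZ saline libraries of day 14. The median sum in those saline libraries was 1846 CPM. Among the most abundant, the protease gene Ctsd rose by 2.55 ± 0.46 and 4.45 ± 0.51 in the EZ at days 3 and 7, and the lipoprotein gene Apoe was at 0.69 ± 0.34 (not called) and 2.74 ± 0.36 (called).

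The ligands and partners of the 9 genes moved in both directions, with 4 of 9 upregulated and 1 downregulated in the EZ at day 3 and 5 and 1 at day 7. In the PIZ at day 3, 2 were upregulated (Tyrobp and Adam17), and in the EZ at day 14, with mouse 27, 1 was (Tyrobp). The ligands of Csf1r went opposite ways in the EZ. On the log2 scale Csf1 rose by 1.49 ± 0.22 at day 3 and 1.65 ± 0.22 at day 7 (adjusted p = 1.54e-06 and 1.23e-07), whereas Il34, which encodes a ligand made largely by neurons, was downregulated with log2 fold changes of -1.76 ± 0.32 and -1.82 ± 0.32 (adjusted p = 3.17e-05 and 1.19e-05). Neither was called in the PIZ at day 3, at 0.69 ± 0.22 and -0.52 ± 0.31. Cx3cl1, which encodes the ligand of Cx3cr1 and was the most abundant of this list, was not called at either day in the EZ (-0.33 ± 0.16 and -0.24 ± 0.16). Of the proteases that release it from the membrane, Adam17 rose by 1.17 ± 0.24 and 1.85 ± 0.24, and Adam10 was at 0.57 ± 0.11 (below the fold threshold) and 0.64 ± 0.11 (called). Entpd1, which degrades extracellular ATP and ADP, rose by 0.84 ± 0.26 and 1.84 ± 0.27, while Nt5e, which degrades AMP, was at -0.06 ± 0.25 and -0.04 ± 0.25 and the ATP-releasing channel gene Panx1 at 0.40 ± 0.12 and 0.28 ± 0.12, without a call. Tyrobp, the adaptor through which Siglech signals and also a gene of the pan-myeloid list, rose by 2.13 ± 0.43 and 4.02 ± 0.47.

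Transforming growth factor beta maintains the homeostatic state of microglia. Of 12 genes of its signaling, 6 were upregulated in the EZ at day 3, 7 at day 7, 1 at day 14 with mouse 27 (Tgfbr2) and 4 in the PIZ at day 3 (Tgfb1, Itgav, Itgb8 and Smad3). The most abundant, Smad3 and Itgb8, were not called in the EZ at day 3 (0.27 ± 0.21 and 0.51 ± 0.15) or day 7 (-0.37 ± 0.21 and 0.58 ± 0.15), and rose in the PIZ at day 3 (0.80 ± 0.22 and 0.95 ± 0.15). Tgfb1, which encodes 1 of the ligands, rose on the log2 scale by 2.12 ± 0.37 and 3.21 ± 0.39 in the EZ, and the receptor gene Tgfbr2 by 1.84 ± 0.37 and 3.02 ± 0.38. The other ligand genes of the list went opposite ways in the EZ at days 3 and 7. Tgfb2, the ligand gene with the highest mean level, averaged 36.3 and 41.2 CPM with kainate against 54.6 and 53.2 CPM with saline, without a call. Tgfb3 averaged 14.8 and 20.9 CPM against 7.67 and 8.09 CPM. Of 8 transcription factors of the microglial lineage, 5 were upregulated on each side at day 3, among them Spi1, Irf8, Runx1 and Cebpa on both, 6 in the EZ at day 7, and 3 at day 14 with mouse 27 (Spi1, Irf8 and Runx1). Mef2a, the most abundant and also expressed by neurons, was downregulated in the EZ at days 3 and 7 (-0.76 ± 0.12 and -0.72 ± 0.12), and Mef2c was not called (0.27 ± 0.22 and 0.24 ± 0.22).

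Some markers of other cells and of dividing cells were also called, and their part in the values of the 9 genes was not tested. Values with an error are log2 fold changes. Proliferation genes (Mki67, Top2a, Ccnb1 and Cdk1) were upregulated, 4 of 4, in the EZ at days 3 and 7 and in the PIZ at day 3, with Mki67 at 3.09 ± 0.46, 4.09 ± 0.50 and 3.39 ± 0.50 and Top2a at 3.02 ± 0.45, 4.13 ± 0.49 and 3.35 ± 0.48. Of 4 astrocyte genes, 3 were upregulated in the EZ at day 3 (Gfap, Aldh1l1 and Aqp4), 4 at day 7 and 3 in the PIZ at day 3 (Gfap, Aldh1l1 and Aqp4), with Gfap at 1.28 ± 0.40, 3.31 ± 0.43 and 3.65 ± 0.44, and Slc1a3 at 0.27 ± 0.12, 0.78 ± 0.12 and 0.29 ± 0.12. Of 9 monocyte and neutrophil genes, 5 were upregulated in the EZ at day 3 (Ccr2, Plac8, S100a4, Chil3 and F13a1) and at day 7 (Ccr2, Plac8, S100a4, Chil3 and F13a1), and 1 in the PIZ at day 3 (S100a4). The most abundant of the list, Ly6c2, was not called (0.63 ± 0.24 and 0.57 ± 0.24 in the EZ), and S100a4 rose by 1.95 ± 0.55 and 3.75 ± 0.61. Of 6 border macrophage genes, 2 were upregulated in the EZ at day 3 (Pf4 and Ms4a7) and 3 at day 7 (Mrc1, Pf4 and Ms4a7), with Ms4a7 at 4.72 ± 0.83 and 5.74 ± 0.86 and Mrc1 at 0.54 ± 0.32 and 1.14 ± 0.33. Of the lymphocyte genes only Cd4 had enough reads to be tested, and it was called in the EZ at day 7 (4.01 ± 0.72). Of 4 endothelial genes, 3 were upregulated in the EZ at day 3 (Cldn5, Pecam1 and Cdh5) and at day 7 (Cldn5, Pecam1 and Cdh5), with Cldn5 at 1.34 ± 0.28 and 0.89 ± 0.28 and Flt1 at -0.16 ± 0.11 and 0.01 ± 0.11. Of 4 oligodendrocyte genes 1 was upregulated, in the EZ at day 7 (Mag), while Mbp was not called (0.67 ± 0.28). The list of 5 granule cell genes included Rbfox3, a gene of neurons in general. Of the 5, 2 were downregulated in the EZ at day 3 (Calb1 and Dsp) and at day 7 (Calb1 and Rbfox3), and 1 in the PIZ at day 3 (Calb1). Their summed level in the EZ at day 7 was 178 to 868 CPM with kainate against 756 to 1072 CPM with saline.

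Within groups the 9 genes varied together. After subtraction of the 12 group means, the 36 pairs of members had a median Pearson correlation of 0.88 (0.67 to 0.98) over 48 libraries. This is a description, since the libraries share mice and depth. Without both libraries of mouse 27 the median was 0.77 (0.41 to 0.97). Outside the members, the genes most like the 9 on average were Selplg, Lpcat2 and Pld4 (mean r = 0.89 each), and without mouse 27 Cd33, Selplg and Pld4 (0.81, 0.80 and 0.80). The gene most like each member was Vsir for P2ry13 (r = 0.95), C1qc for Tmem119 (0.95), Hpgds for Cx3cr1 (0.98), Cd33 for Sall1 (0.96), Pld4 for Csf1r (0.98), Atp6v0a2 for Gpr34 (0.92) and Ly86 for Olfml3 (0.97). P2ry12 (with Slc2a5, 0.85) and Siglech (with Crybb1, 0.81) had the lowest such values.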

How the data were processed

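The dorsal dentate gyrus of both sides was measured by stranded poly-A RNA sequencing in 24 mice, and a replicate is a separate mouse. The authors trimmed reads with fastp 0.20.1, aligned them to GRCm39 with HISAT2 2.2.1 and obtained counts per Gencode M28 gene from featureCounts (Subread 1.6.4), by strand and with multi-mapping reads at their primary alignment, and they deposited raw counts without normalization. Every column was matched to 1 sample by its title.

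Low genes were removed here with filterByExpr and TMM factors computed (edgeR 4.0.16, R 4.3.3). A mean for each of the 12 groups was then fitted by quasi-likelihood to the 48 libraries, giving 15 comparisons. The SE is the absolute log2 fold change divided by the square root of F. CPM and RPKM were computed here from the counts, with a prior count of 2 for log2 CPM. RPKM used exon lengths of Gencode M39, to which 98.90% of gene IDs matched. The model was also run on simulated data, with an outcome that is not given here. Shares of all genes are over the genes entered in that fit, 42145 for DESeq2.

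The 2 libraries of a mouse carry its number, so that numbers pair EZ and PIZ. Their residuals correlated between -0.054 and 0.376 (median 0.208), and mouse entered as a block in alternatives. Other alternatives were DESeq2 1.42.0, limma-voom (limma 3.58.1) with and without quality weights, only the groups compared, library size only or RLE size factors, genes unfiltered or with a minimum of 10 counts per library, glmTreat against a fold of 1.5, a looser adjusted p of 0.05, each mouse left out, and the pan-myeloid list without C1q genes. Unweighted limma-voom and the correlations without single mice were added after the data were seen.

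The members, lists and tests were chosen with earlier results of these data known. Named were all 9 members, all ligands and partners, the 2 most abundant genes of every other list, genes of counts of 5 or fewer, the 3 genes most like the members and the gene most like each member. Of 18 other homeostatic genes, Fcrls was not matched by name. Some genes that the naming rule selects are not reported here, though they remain in the counts and medians of their lists. Tgfb1, Tgfb2, Tgfb3 and Tgfbr2 lie outside this rule and were chosen after their values were seen.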

Additional observations from a re-analysis of the deposited data

Results flagged for a closer look

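In groups of 4 libraries, the gap between the most extreme library and the nearest of the others was compared with the whole range. This was done on log2 CPM by Dixon's test, which flags about 1 group in 20 by chance. Levels are printed below as CPM, on which the gaps would differ. Of 108 groups tested, 8 passed (7.41%), and 6 of these were the EZ library of kainate mouse 27 at day 14. It held 116 CPM of P2ry12, against 43.1 to 49.7 CPM in the other 3 mice. The same library held 66.5 CPM of P2ry13 (others 15.4 to 17.7) and 118 CPM of Tmem119 (others 21.4 to 26.5). Sall1 stood at 66.9 CPM (others 23.8 to 24.8), Siglech at 86.4 CPM (others 23.2 to 27.5) and Gpr34 at 99.8 CPM (others 18.4 to 23.1). Tmem119 in the PIZ library of kainate mouse 21 at day 7 was low, at 19.7 CPM against 30.7 to 33 CPM. Csf1r in the EZ library of saline mouse 31 at day 14 was low by a small amount, at 105 CPM against about 112 CPM in the other 3 mice.

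The kainate effect differed between the sides at day 7 in edgeR for 8 genes. The EZ effect exceeded that in the PIZ, on the log2 scale, by 1.75 for Csf1r, 2.06 for Cx3cr1, 1.91 for Gpr34, 2.58 for Olfml3, 1.28 for P2ry12, 2.19 for P2ry13, 1.33 for Sall1 and 2.10 for Tmem119. In the EZ the effect at day 7 exceeded that at day 3 by 1.67 for P2ry12 and 2.10 for Siglech.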

How the results depend on the processing

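Both single mice and the choice of test moved these results. The 9 calls in the EZ at day 7 were kept without any 1 mouse. Without 1 mouse the members called ranged from 2 to 4 in the EZ at day 3, from 0 to 8 in the EZ at day 14 (0 without kainate mouse 27 or any saline mouse), from 4 to 8 in the PIZ at day 3, from 0 to 2 for the difference of sides at day 3, from 0 to 8 at day 7, from 0 to 4 for EZ day 7 minus day 3 and from 0 to 9 for EZ day 14 minus day 7 (9 without kainate mouse 27). Calls over all genes moved as well, for EZ day 14 minus day 7 from 0.271% with all mice to 18.8% without kainate mouse 27. These ranges alone do not set the members apart from all genes. The causes were not tested.

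Shares in parentheses are those of all genes in the same fit. glmTreat against a fold of 1.5 called 2 members in the EZ at day 3 (10.5%), 0 in the EZ at day 14 (0.64%), 2 in the PIZ at day 3 (2.81%), 0 for the sides at day 7 (0%) and 0 for EZ day 7 minus day 3 (0.00468%). An adjusted p under 0.05 with no fold threshold called 8 in the EZ at day 14 (5.13%), 2 for the sides at day 3 (0.715%), 5 for EZ day 7 minus day 3 (0.566%) and 6 for EZ day 14 minus day 7 (14.9%). DESeq2 called 1, 5 and 1 in the last 3 of these (0.225%, 0.237% and 2.13%). Models of only the groups compared called 0 in the EZ at day 14 (0%), 0 for EZ day 7 minus day 3 (0.0147%) and 1 for PIZ day 7 minus day 3 (0.791%). Limma-voom with quality weights called 0 in the EZ at day 14 (0.271%), 6 in the PIZ at day 7 (3.84%), 5 for the sides at day 3 (8.78%), 9 for EZ day 7 minus day 3 (5.73%), 9 for EZ day 14 minus day 7 (29.5%), 1 for PIZ day 7 minus day 3 (0.659%) and 6 for saline at day 3 (0.463%), and without weights 0 in the EZ at day 14 (0%). In the EZ at day 3 limma-voom with quality weights called 5 members, against 4 in edgeR, DESeq2 and unweighted limma-voom. Its share of all genes there is not given here. With mouse as a block in limma-voom 0 members were called in the EZ at day 14 (0%) and Siglech for the sides at day 3 (1 member, 0.192%). No other call of a member changed under either block.

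Signs reversed only for uncalled values. In the PIZ at day 7 P2ry13 ranged from -0.08 to 0.14 without single mice and was below 0 without kainate mouse 26 or 35 or saline mouse 34. At day 14 there, Sall1 ranged from -0.06 to 0.11 without single mice, Olfml3 from -0.03 to 0.10 and Gpr34 from -0.07 to 0.06, with Sall1 and Olfml3 below 0 without mouse 27 and Gpr34 above 0 without saline mouse 24 or kainate mouse 14 or 40 (0.06, 0.03 and 0.00). With quality weights Sall1 was at -0.01 and Olfml3 at -0.03, and by library size only Gpr34 was at 0.00. Without C1q genes in the pan-myeloid list Cx3cr1 in the EZ at day 7 moved from -1.07 to -0.94, and the members below every saline library fell from 8 to 7 in the EZ at day 3 and from 7 to 6 in the PIZ at day 7, where Tmem119 came to overlap.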
